A study of Mus musculus with 8 samples.

Results

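The 46 mouse genes described here encode nucleoporins, importins, exportins and the small GTPase Ran with its regulators. They were listed by name as nuclear pore and nuclear transport genes, with earlier results of these data known. Counts of sign over the list therefore describe these genes and are no test. Each of the 46 was found once among the 15978 rows of the authors' deposited table, Nup58 under its older symbol Nupl1. The table compares brain RNA of 5 C9-BAC mice with that of 3 wild-type mice. The C9-BAC mice express a human C9ORF72 bacterial artificial chromosome (a large piece of cloned genomic DNA) that includes 500 G4C2 repeats, and the others are labelled wild type. All 8 mice were males of an SJL/Bl6 background, and the labels give no age, brain region, batch, transgenic line or founder number. Each label is taken as a separate mouse; if the samples were drawn in another way, the p-values speak only of how these samples vary. A single value per gene was deposited for the whole comparison, so levels in each mouse were not analysed here.

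The nuclear pore is a ring of nucleoporins set in the nuclear envelope, through which proteins and RNA pass between nucleus and cytoplasm. Importins carry cargo in and exportins carry cargo out, and Ran in its GTP form, kept high in the nucleus, sets the direction by releasing import cargo there and holding export complexes together. Many nucleoporins hold repeats of phenylalanine followed by glycine (FG), which line the channel and bind the carriers. Nuclear transport has been studied widely in cells and flies that express the C9ORF72 repeat, whose expansion causes amyotrophic lateral sclerosis and frontotemporal dementia. The comparison asks whether the brain RNA of these genes differs when the expanded human gene is present.

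At an adjusted DESeq2 p of 0.05 the genotypes differed in none of the 46 genes, nor in any of the 15944 rows with a p (0%). The adjusted p was 0.9997 for each of the 46 in the authors' deposited table. An unadjusted DESeq2 p under 0.05 was reached by 1 of the 46, Ranbp17, where 1.5% of the 15944 rows reached it in either direction and 0.84% with a negative value. This count is near the background. Over every row of the authors' deposited table log2 fold changes ran from -0.318 to 0.347, and 82.6% of the rows lay within 0.1 of 0. The log2 fold changes of the 46 ran from -0.28 (Ranbp17) to 0.092 (Nup210) there. Of the 46, 36 (78.3%) lay within 0.1 of 0, so values this small do not set these genes apart. Fold changes were negative for 36 and positive for 10, with a median of -0.023, beside 51.8% negative and a median of -0.0036 over the 13704 rows with a p whose mean normalized count reached 10. The table does not state which genotype is the numerator, so a sign is given as deposited and never as higher or lower in either genotype. Standard errors of the 46 lay between 0.076 and 0.11, and no row of the table had one above 0.11. Fold changes may have been drawn toward 0 by a prior, which no source records (see the processing below). In bulk tissue, fewer cells of a type and less RNA per cell cannot be told apart.

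**Figure D1:**
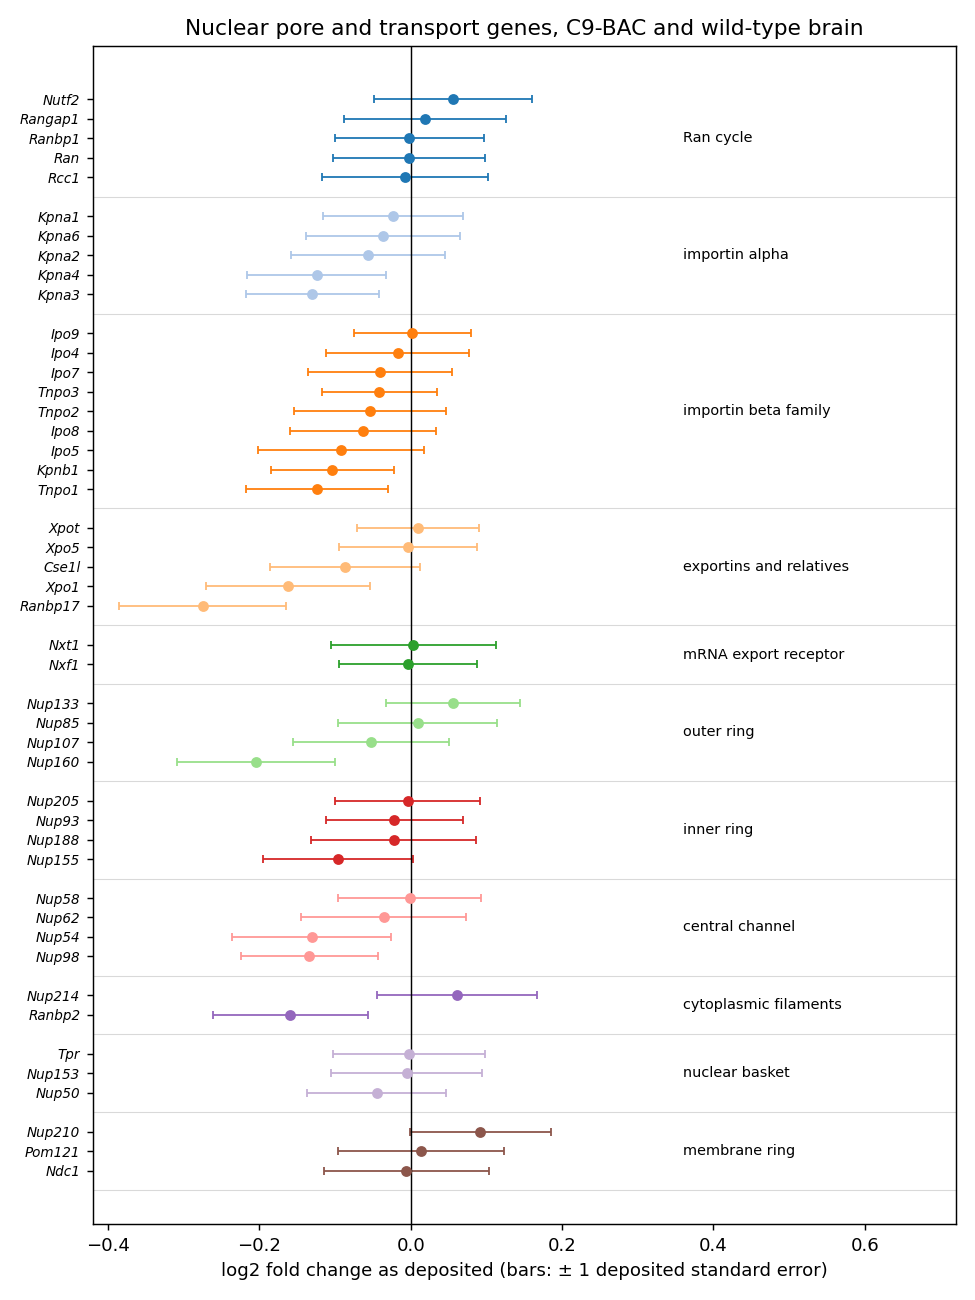
Deposited log2 fold change (x axis) of each of the 46 nuclear pore and transport genes (y axis), grouped by role, with bars of 1 deposited standard error on each side. Ranbp17 (-0.28) and Nup160 (-0.20) lie farthest from 0, and all 5 importin alpha genes lie on the negative side.

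The RNA came from brain as labelled: the neuronal genes Snap25, Syt1, Rbfox3, Tubb3, Stmn2 and Map2 had mean normalized counts of 1730 to 13868 in the authors' deposited table, and the astrocyte gene Slc1a2 one of 45839. Of the genes listed for liver, Apoa1 stood at 1.86 and Ttr, which is not particular to liver, at 33.2. The 3 skeletal muscle genes found had mean normalized counts of 2.75 to 103.4, and the 4 blood genes found 26.7 to 1183. Neuronal markers had 5 positive and 1 negative fold changes, astrocyte markers 1 and 5, oligodendrocyte markers 2 and 4, microglial markers 2 and 4, endothelial markers 5 and 1, blood genes 4 and 0 and skeletal muscle genes 3 and 0. Proliferation markers, Mki67 among them, had 0 positive and 5 negative values at mean normalized counts of 2.87 to 52.3. None of the markers with a p passed, the blood genes Hba-a2 and Hbb-bs having none, and the part of all these markers in the values of the 46 genes was not tested.

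The mean normalized count was at least 100 for 42 of the 46 genes, beside 9624 of the 15978 rows. Its median was 616.8 for the 46 genes and 170.8 for every row. Nxt1, Ndc1, Rcc1, Ranbp17, Nup54, Nup160 and Nup107 lay under 170.8. The mean normalized count is the mean over all 8 samples of counts divided by size factors, and counts rise with transcript length. Levels were therefore compared per kb of transcript, with the median GENCODE transcript length of each gene. On this scale 31 of the 46 lay above 83.4, the median of rows whose mean normalized count reached 10. The highest levels per kb belonged to Rangap1 (972.8), the activator of Ran's GTPase, to Ran itself (739.3), to Kpnb1 (450.9), the importin beta that carries most classical cargo, and to the cytoplasmic filament gene Ranbp2 (398.7). At the low end were Ndc1 (16.7), a membrane anchor of the pore, Ranbp17 (18.1), Nup160 (25.1) and Rcc1 (36.1), the chromatin-bound exchange factor that loads Ran with GTP. The spread between mice is not part of the table, so neighbours in this order were not separated by any test.

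**Figure D2:**
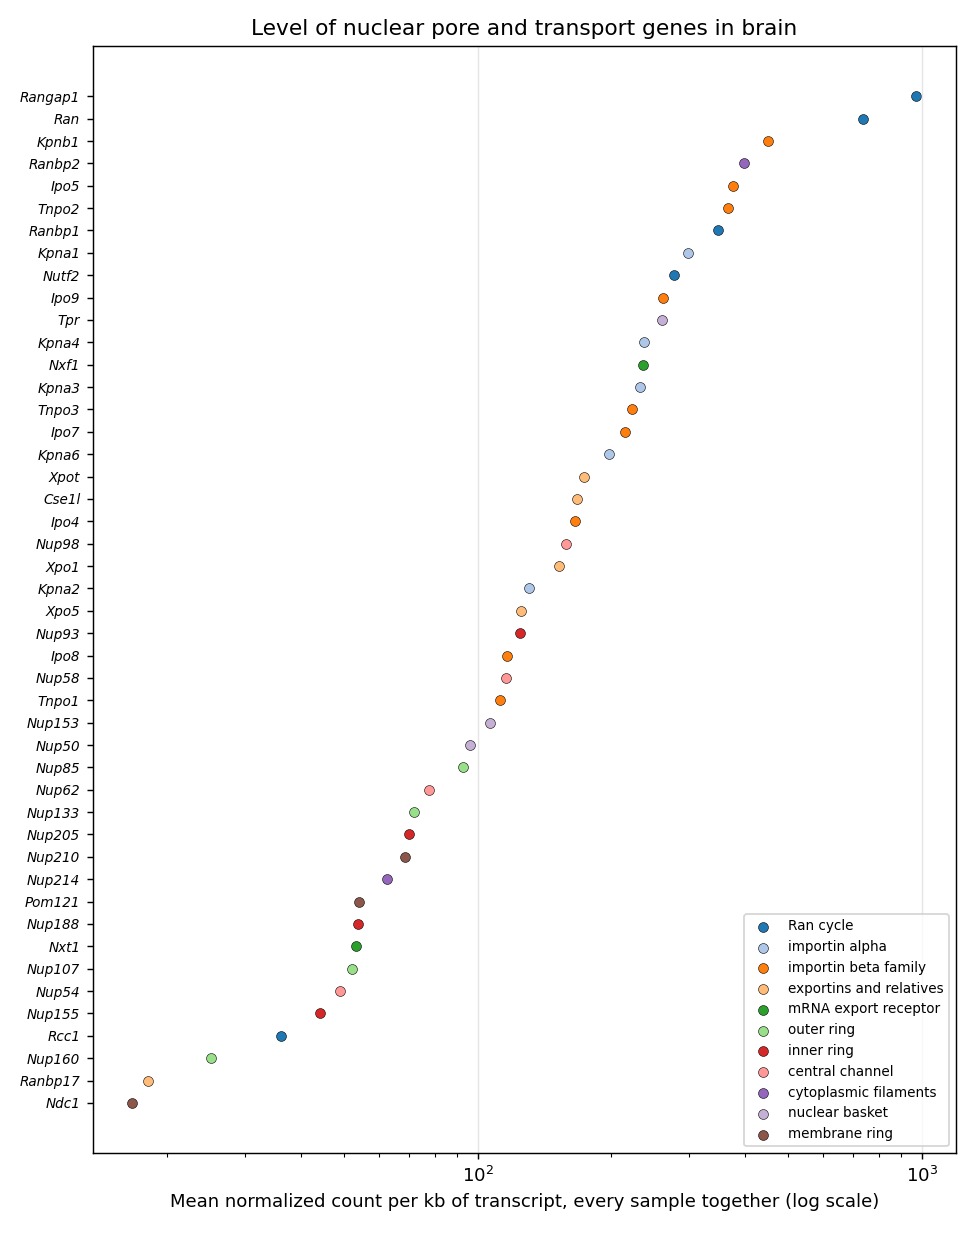
Mean normalized count per kb of transcript over all 8 samples (x axis, log scale) for the 46 genes in descending order (y axis), coloured by role. Rangap1 (972.8) and Ran (739.3) are highest, and Ndc1 (16.7), Ranbp17 (18.1) and Nup160 (25.1) lowest.

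Several of these genes come in closely related pairs, and short reads from the coding parts that pairs share could be assigned to either gene. Kpna3 and Kpna4, both importin alpha adaptors, had 85.8% identical residues in their translated coding sequences, Tnpo1 and Tnpo2, the transportins, 85.7%, and Kpna1 and Kpna6 81.6%. The longest run of identical coding bases was nevertheless 26 for Kpna3 with Kpna4, 26 for Tnpo1 with Tnpo2 and 16 for Kpna1 with Kpna6. The coding stretches around these 26-base runs are shown, from GENCODE vM21 transcripts on GRCm38 (mm10), because they hold the longest runs that the genes of a pair share. All 4 are written 5′ to 3′ on the coding strand. Capitals mark bases that differ within a pair, 24 of 90 in the first and 18 of 90 in the second. The Kpna3 stretch lies at chr14:61367678-61368165 (minus strand) and the Kpna4 stretch at chr3:69074136-69076787 (minus strand), each across the junction of exons 16 and 17. The Tnpo1 stretch lies at chr13:98858412-98858501 (minus strand) and the Tnpo2 stretch at chr8:85050415-85050504 (plus strand), both in exon 14.
Kpna3: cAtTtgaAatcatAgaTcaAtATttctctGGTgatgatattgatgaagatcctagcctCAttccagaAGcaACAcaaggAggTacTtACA
Kpna4: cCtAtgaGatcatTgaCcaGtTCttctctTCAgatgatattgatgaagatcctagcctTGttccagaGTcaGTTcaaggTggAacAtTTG
Tnpo1: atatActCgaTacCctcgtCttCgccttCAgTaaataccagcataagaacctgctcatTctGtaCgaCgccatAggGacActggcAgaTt
Tnpo2: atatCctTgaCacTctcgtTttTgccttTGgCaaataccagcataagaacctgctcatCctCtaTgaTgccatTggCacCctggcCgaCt

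The Kpna3 stretch had a GC content of 36.7% and the Kpna4 stretch one of 41.1%. Near-identical copies elsewhere were found for 6 of the 46 coding sequences, at 95% identity or more over at least 200 bases. These were Ran, Nutf2, Kpna2, Tnpo1, Xpot and Nup54, whose closest copies were processed pseudogenes except for Nutf2-ps1, which matched the Nutf2 coding sequence over 384 bases at 100% and is annotated as protein coding. Exons of 16 of the 46 genes overlapped exons of another annotated gene, on the opposite strand in 14, among them Rangap1, Ranbp1, Ranbp17, Rcc1, Kpnb1, Tnpo2, Tnpo3, Nup62, Nup133, Nup188, Nup214, Pom121 and Tpr. Ranbp1, Rcc1, Tnpo2, Ipo4, Nup58, Nup62, Nup188 and Nup214 overlapped a gene on the same strand, which use of the strand in counting would not separate. Libraries were strand-specific per the labels' protocols, but whether counting used the strand or kept reads with several matches is not given in these sources, so the values of these genes are uncertain to that extent.

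In the Ran cycle all 5 fold changes were smaller than their standard errors. Nutf2, whose product NTF2 returns Ran to the nucleus, averaged 262.6 normalized counts, and its log2 fold change was 0.056, standard error 0.10 (DESeq2 p = 0.592) in the authors' deposited table. Rangap1 averaged 2927 normalized counts, and its log2 fold change was 0.019, standard error 0.11 (DESeq2 p = 0.858) in the authors' deposited table. The other 3 were slightly negative there, Ran at -0.0022, its binding protein gene Ranbp1 at -0.0021 and Rcc1 at -0.0075.

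Fold changes of all 5 importin alpha genes were negative, with a median of -0.056 on the log2 scale. These adaptors bind the classical nuclear localization signal of a cargo and link it to importin beta. Kpna3, on chromosome 14 at 61365186 to 61439947, averaged 946.8 normalized counts, and its log2 fold change was -0.13, standard error 0.088 (DESeq2 p = 0.138) in the authors' deposited table. Its relative Kpna4, on chromosome 3 at 69072221 to 69127092, stood at 883.5 and -0.12 with a standard error of 0.092 (DESeq2 p = 0.177) in the authors' deposited table. In the other related pair the authors' deposited table gives -0.024 for Kpna1 and -0.037 for Kpna6, and for Kpna2, the importin alpha best known from dividing cells, -0.056. The 2 genes with the values farthest from 0 were thus the related Kpna3 and Kpna4, whose transcripts had GC contents of 39.6% and 41.9%. That of Kpna1, with a value of -0.024, was 42.05%, close to that of Kpna4. The part of GC content in these values was not tested.

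Importin beta and its relatives bind cargo or adaptors and carry them through the pore. Of 9 genes, 8 had negative values and 1, Ipo9 at 0.0023, a positive one, with a median of -0.054. With rows of like GC content and length taken off, 7 of the 9 were negative. Tnpo1, which encodes the import receptor transportin-1, averaged 947.1 normalized counts, and its log2 fold change was -0.12, standard error 0.093 (DESeq2 p = 0.184) in the authors' deposited table. Its relative Tnpo2 stood at -0.054 in the authors' deposited table, with a transcript GC content of 53.4% against 40.4% for Tnpo1. Kpnb1, on chromosome 11 at 97159710 to 97187892, averaged 2658 normalized counts, and its log2 fold change was -0.10, standard error 0.081 (DESeq2 p = 0.202) in the authors' deposited table. The remaining values there were -0.093 for Ipo5, -0.063 for Ipo8, -0.042 for Tnpo3, the importer of SR splicing factors, -0.040 for Ipo7 and -0.017 for Ipo4. The transcript GC content of Ipo7 was 40.3%, close to that of Tnpo1, and the part of GC content in these values was not tested. None of the 9 was as much as 2 standard errors from 0.

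Exportins and their relatives held the gene with the smallest p of the 46. Ranbp17, a relative of the exportin gene Xpo7, lies on chromosome 11 at 33211794 to 33513784. It averaged 90.5 normalized counts, and its log2 fold change was -0.28 (0.826-fold), standard error 0.11 (DESeq2 p = 0.0124, adjusted p = 0.9997) in the authors' deposited table. Its exons overlap those of the noncoding RNA gene Gm12116 on the other strand. Xpo1, the main exporter of proteins with a leucine-rich export signal, on chromosome 11 at 23255909 to 23297597, averaged 766.5 normalized counts, and its log2 fold change was -0.16, standard error 0.11 (DESeq2 p = 0.133) in the authors' deposited table. Cse1l, which returns importin alpha to the cytoplasm, stood at -0.087 in the authors' deposited table. The 2 exporters of small RNAs, Xpo5 for microRNA precursors and Xpot for transfer RNA, had values of -0.0036 and 0.0091 there.

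The mRNA export receptor is a pair of proteins encoded by Nxf1 and Nxt1, and both fold changes lay within 0.1 of 0. Nxf1 averaged 749.9 normalized counts, and its log2 fold change was -0.0040, standard error 0.091 (DESeq2 p = 0.965) in the authors' deposited table. Nxt1, the least counted of the 46 with a mean normalized count of 55.2, stood at 0.0037 with a standard error of 0.11 (DESeq2 p = 0.973) in the authors' deposited table.

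Among the 20 pore genes 15 fold changes were negative and 5 positive, with a median of -0.014, and among the 26 soluble factors 21 and 5, with a median of -0.039. The scaffold of the pore consists of an outer ring, the Y complex, and an inner ring. In the outer ring, Nup160, on chromosome 2 at 90677215 to 90739327, averaged 142.8 normalized counts, and its log2 fold change was -0.20 (0.868-fold), standard error 0.10 (DESeq2 p = 0.0503) in the authors' deposited table. Its partners in the same complex lay nearer to 0: Nup133 stood at 0.055 with a standard error of 0.089 (mean normalized count 417.8, DESeq2 p = 0.532), Nup85 at 0.0090 and Nup107 at -0.052 in the authors' deposited table. All 4 inner ring genes were negative and close to 0 apart from Nup155, at -0.096 with a standard error of 0.099 (mean normalized count 346.1, DESeq2 p = 0.332) in the authors' deposited table. With rows of like GC content and length taken off, 3 of these 4 were negative. Nup93 stood at -0.022 with a standard error of 0.091 (mean normalized count 364.4, DESeq2 p = 0.811), Nup188 at -0.023 and Nup205 at -0.0041 in the authors' deposited table.

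Genes of the central channel were all negative, with a median of -0.083 over 4. With rows of like GC content and length taken off, 3 of these 4 were negative. Nup98, which also acts on chromatin and yields 2 nucleoporins from a single precursor, averaged 627.9 normalized counts, and its log2 fold change was -0.13, standard error 0.090 (DESeq2 p = 0.139) in the authors' deposited table. Nup54 averaged 115.5 normalized counts, and its log2 fold change was -0.13, standard error 0.11 (DESeq2 p = 0.213) in the authors' deposited table. Nup62 and Nup58, which form the channel complex together with Nup54, stood at -0.035 and -0.0014 there. Nup54 is 1 of the 6 genes with a near-identical copy.

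The filaments on the cytoplasmic side held 1 gene of each sign. Ranbp2, the large filament protein that binds Ran and attaches SUMO, lies on chromosome 10 at 58446852 to 58494155. It was the most counted of the 46, with a mean normalized count of 3830, and its log2 fold change was -0.16 with a standard error of 0.10 (DESeq2 p = 0.120) in the authors' deposited table. Nup214, the other cytoplasmic gene, averaged 413.6 normalized counts, and its log2 fold change was 0.061, standard error 0.11 (DESeq2 p = 0.564) in the authors' deposited table. The 3 nuclear basket genes were at or slightly under 0: Nup50 at -0.045 with a standard error of 0.092 (mean normalized count 459.2, DESeq2 p = 0.625), Nup153 at -0.0054 with a standard error of 0.10 (mean normalized count 650.6, DESeq2 p = 0.957) and Tpr at -0.0022 in the authors' deposited table. The membrane ring held the most positive gene of all, Nup210, at 0.092 with a standard error of 0.093 (mean normalized count 483.2, DESeq2 p = 0.325) in the authors' deposited table. Its neighbours in that ring, Pom121 at 0.013 with a standard error of 0.11 (mean normalized count 302.3, DESeq2 p = 0.902) and Ndc1 at -0.0056, lay near 0 in the authors' deposited table.

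Nucleoporins with and without dense FG repeats had overlapping ranges of fold change. Counting phenylalanine codons directly followed by glycine codons, 8 pore genes had at least 10 such pairs per 1000 residues: Nup98 (22.6), Nup214 (22.1), Nup58 (20.7), Pom121, Nup153 (19.8), Nup54 (15.7), Nup62 (11.4) and Nup50 (10.7). Of these 8 genes 6 had negative and 2 positive fold changes, from -0.13 to 0.061 with a median of -0.020. The 12 other pore genes, with up to 7.4 pairs per 1000 residues, had 9 negative and 3 positive values, from -0.20 to 0.092 with a median of -0.014. The richest 90-base coding windows of 2 channel genes are shown, since their GC contents differ although both encode FG repeats. Capitals mark the FG codon pairs, 4 in Nup54 (chr5:92430841-92430930, minus strand, exon 3, 51.1% GC) and 2 in Nup62 (chr7:44828563-44828652, plus strand, exon 2, 56.7% GC), written 5′ to 3′ on the coding strand of GENCODE vM21 transcripts on GRCm38.
Nup54: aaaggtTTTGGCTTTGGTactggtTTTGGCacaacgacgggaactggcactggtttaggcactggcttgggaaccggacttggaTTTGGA
Nup62: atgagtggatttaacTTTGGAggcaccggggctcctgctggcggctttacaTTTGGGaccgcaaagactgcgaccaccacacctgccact

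The GC content of the transcript, which is not part of how the genes were chosen, went along with the deposited values of the 46 genes and of the table as a whole. Between log2 fold change and GC content, Spearman's rho over the 46 genes was 0.610, with a Pearson's r of 0.559, and over 13627 rows rho was 0.417. Both correlations run across genes that share the same libraries, and genes are not independent replicates. The median GC content was 47.6% for the 46 genes and 50.5% for the table. These 13627 rows, with a GC content and a mean normalized count of 10 or more, were split into 5 bins of equal size by GC content. In the lowest bin (29.8% to 44.6%) all 10 nuclear transport genes had negative values, with a median of -0.11, beside 78.2% negative and a median of -0.054 for the rows there. These 10 were Xpo1 (38.7% GC), Kpna3, Ipo7 (40.3% GC), Tnpo1, Ranbp2 (40.6% GC), Cse1l, Kpna4, Kpna1, Nup155 and Nup58. Whether GC content has a part in these fold changes was not tested. In the next bin, up to 48.6% GC, 16 of 17 were negative, beside 63.8% of the rows there. The median was -0.052 against -0.023 for those rows. In the middle bin 5 of 9 were negative, beside 48.7% of the rows. In the highest 2 bins 3 of 7 and 2 of 3 were negative, where 37.1% and 30.8% of the rows were.

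**Figure D3:**
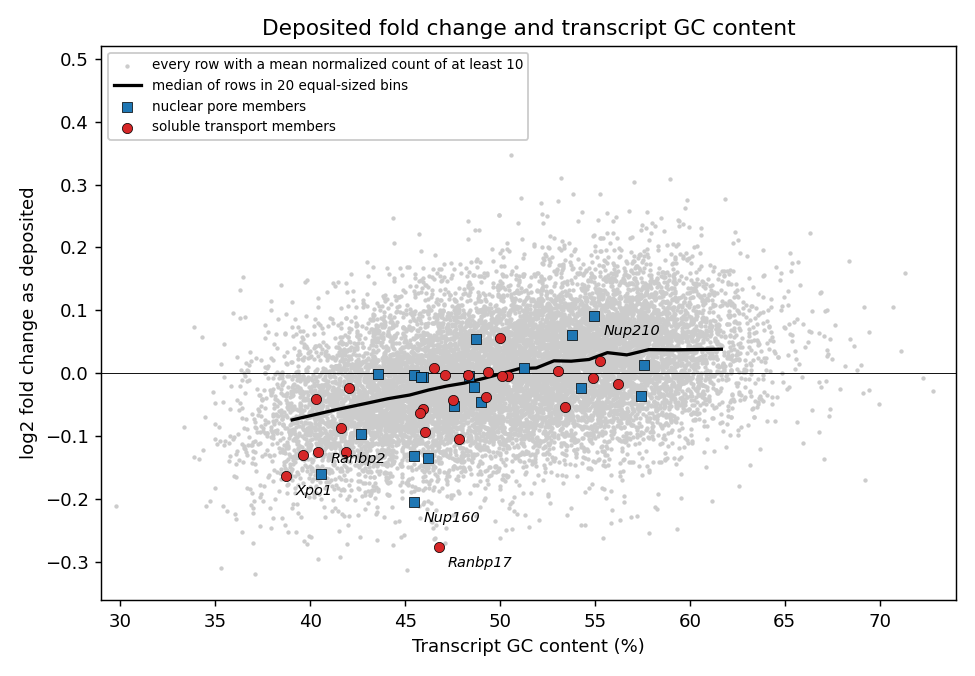
Deposited log2 fold change (y axis) against transcript GC content in percent (x axis) for rows whose mean normalized count reached 10 (grey), their median in 20 equal-sized bins (black line), the 20 pore genes (squares) and the 26 soluble transport genes (circles). The grey cloud rises with GC content, 30 of the 46 genes are negative against rows of like composition, and Ranbp17 and Nup160 lie farthest under the black line.

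To set each gene against rows of like composition, the median of the 500 rows nearest in GC content and length was subtracted, taken among rows whose mean normalized count reached 10. After this, 30 of the 46 values were negative and 16 positive, with a median of -0.028, beside 50.5% negative for the same 13627 rows. Subtracting local medians by itself leaves about as many of those rows above 0 as below. For the 20 pore genes 11 of 20 were negative, where 15 were as deposited, and for the 26 soluble genes 19 of 26, where 21 were. Ranbp17 kept a difference of -0.25 and Nup160 one of -0.17 from rows of like composition. For Nup98 this difference was -0.11, for Nup54 -0.10, for Xpo1 -0.095, for Ranbp2 -0.094 and for Kpnb1 -0.084. The values of Kpna3 and Kpna4 went to -0.066 and -0.070, and that of Tnpo1 to -0.055. The DESeq2 statistic was also centred on its median and divided by its robust SD, both taken over the 13704 rows with a p whose mean normalized count reached 10. It then gave a p under 0.05 for 2 of the 46 genes, beside 4.95% of those 13704 rows. The robust SD was 0.789, and dividing by an SD under 1 by itself lowers the p of a statistic far from the median. The rescaled DESeq2 statistic gave Ranbp17 a p of 0.0018 and Nup160 a p of 0.0149, which are no added evidence over the deposited values. With GC content and length taken off first the same count was 2 of 46, beside 6.31% of the 13627 rows that also have a GC content. Both shares are near the background, and no gene of the 46 passed after adjustment over the same rows, the smallest adjusted p being 0.232 for Ranbp17.

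The other genes of the pathway gave 27 positive and 31 negative values among the 58 found, with a median of -0.0075, and none passed or had an unadjusted DESeq2 p under 0.05. Of 12 further nucleoporin genes 8 were positive and 4 negative, beside 5 and 15 for the 20 pore genes above, and after rows of like composition were taken off 6 of the 12 were negative; the difference between the lists was not tested. The authors' deposited table gives -0.14 with a standard error of 0.088 for Ahctf1, which seeds pore assembly on chromatin, and 0.12 with a standard error of 0.10 for Gle1, a factor of mRNA export at the cytoplasmic face. Further importins and exportins had 2 positive and 6 negative values, with Ranbp6 at -0.15 (standard error 0.092) and Hikeshi, the importer of HSP70, at -0.080 (standard error 0.10) in the authors' deposited table. Ran-binding genes and regulators had 4 positive and 5 negative values, with Rcc2 at 0.13 and the SUMO protease gene Senp2 at -0.091 in the authors' deposited table. Genes of mRNA export had 8 of each sign, and those with the smallest p were both subunits of the THO complex, Thoc1 at -0.19 (standard error 0.11) and Thoc7 at -0.17 (standard error 0.097) in the authors' deposited table. Lamina and LINC complex genes, which link the envelope to chromatin and cytoskeleton, had 5 positive and 8 negative values, with Syne2 at -0.15 and Lemd3 at -0.10 in the authors' deposited table.

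**Figure D4:**
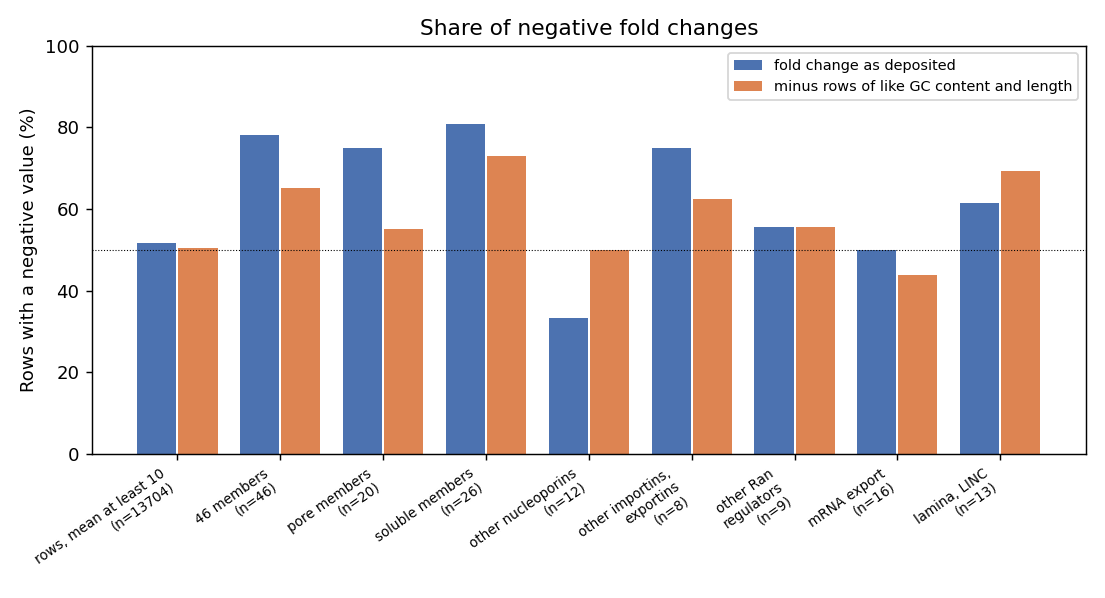
Share of rows with a negative log2 fold change in percent (y axis) for rows whose mean normalized count reached 10, the 46 genes, their pore and soluble parts, and 5 lists of other pathway genes (x axis, with the number of genes), as deposited (blue) and minus rows of like GC content and length (orange). The dotted line is at 50%, and subtracting local medians by itself puts the orange bar of the rows near it. The 46 genes stand at 78.3% and 65.2%, and the 12 other nucleoporins at 33.3% as deposited.

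Promoters of the 46 genes were rich in CpG. RefSeq promoter sequences (GRCm38.p6) were found for 41 of them, and in the 250 bases before the first listed start the median GC content was 64.0% and the median number of CpG pairs 22, beside 59.2% and 15 for 12557 genes of the table. Motifs were instead sought in the 250 bases before every listed start of a gene, so a gene with more listed starts had more places to match. The letters GCGCATGC, part of the NRF1 motif, occurred on either strand in 6 of 41 (14.6%), namely Ran, Ranbp1, Xpo5, Nup50, Nup62 and Nup107, beside 4.48% of the 12557. The SP motif GGGCGG occurred in 30 of 41 (73.2%) beside 60.6%, CCAAT in 16 (39.0%) beside 40.1%, the ETS motif CCGGAAG in 5 (12.2%) beside 13.5%, TATAAA in 5 (12.2%) beside 8.57%, and the YY1 letters AAGATGGC in 2 (4.88%) beside 2.16%. The motifs were chosen after the data were seen, and the NRF1 letters were shortened to 8 after counts for a longer form were seen, so the NRF1 share is a description of a choice made in that way. A match describes these letters only, and no binding was measured. For the 6 genes with the NRF1 letters the log2 fold changes were -0.0022, -0.0021, -0.0036, -0.045, -0.035 and -0.052 in the order named, all taken from the authors' deposited table.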

How the data were processed

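Trizol RNA of mouse brain went into strand-specific libraries with no poly(A) selection step, per the labels' protocols. Trimmomatic, Bowtie2, DESeq and DESeq2 are named without versions, with build mm10, per the submitters' processing notes; counter, annotation and filters were not given in the sources used here. From these steps the authors deposited 1 DESeq2 table. Its mean normalized count is a signal, the authors' mean of counts divided by size factors; fold changes and standard errors are log2 values per the file headers; the statistic (Wald) is a score deposited by the authors, and p-values and adjusted p-values were deposited by them too. On every row the statistic equalled the ratio of fold change to standard error within 8.3e-07, and the adjusted p a Benjamini-Hochberg adjustment over 15944 rows within 5.3e-12. Standard errors fell toward low counts (median 0.0516 under a mean of 10, 0.102 over all rows), a form that a prior on fold changes gives; no source records one, and with one the fold changes would be drawn toward 0. Depth per sample is unknown from this table.

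Symbols came from RefSeq accessions (GRCm38.p6) for 15857 rows and from GENCODE vM21 for 73. Transcript GC content and length were found for 99.3% of rows and all 46 genes. Local medians used the 500 nearest rows among those whose mean normalized count reached 10, and the code was tested on simulated data. Copies were searched with BLAST 2.17.0; Python 3.11.15, scipy 1.17.1 and Biopython 1.88 were used. The genes, lists and tests were chosen with earlier results of these data known. Full values are given for genes with an unadjusted p under 0.05, for the 2 of smallest p in each of 11 role groups and for the highest and lowest mean; of other pathway lists the 2 of smallest p are named. The searches for near-identical copies and promoter motifs were added after the data were seen.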

Additional observations from a re-analysis of the deposited data

How the results depend on the processing

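No gene of the 46 passed an adjusted p of 0.05 under any of 4 alternatives: adjustment over rows whose mean normalized count reached 10 or 100, the rescaled statistic, and the statistic rescaled after GC content and length were taken off. The count with an unadjusted p under 0.05 was 1 as deposited and 2 in both rescaled forms, Nup160 joining Ranbp17. Both forms divide by a robust SD under 1 (0.789 and 0.685), which by itself lowers such p-values. Negative fold changes numbered 36 of 46 as deposited. They numbered 32 of 46 after the median of rows whose mean normalized count reached 10 was taken off, and 29 of 46 after that of every row. Taking off such a median leaves about as many of its rows above 0 as below. After GC content and length the count was 30 of 46. Among the 42 genes with a mean of at least 100 it was 33. Without the 6 genes that have a near-identical copy it was 32, over fewer genes. The every-row median and the copies were alternatives chosen after the data were seen. The median log2 fold change lay between -0.030 and -0.012 in all 6 alternatives, the value nearest 0 being that without related pairs. Of the 22 genes given with full values, 4 with values near 0 (Rangap1, Nxt1, Nup153 and Pom121) took the other sign once GC content and length were taken off. Fits without 1 mouse need values per mouse, which were not analysed here. No paired analysis was possible because the genotypes share no replicate numbers.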
